A study of Mus musculus with 6 samples.

Results

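The genes described here are 10 regulators of the E2F, RB and FOXM1 network, chosen by name: E2f1, E2f2, E2f3, E2f7, E2f8, Foxm1, Mybl2, Rb1, Rbl1 and Rbl2. Each matched 1 of the 34745 rows of the deposited gene table by gene name. They were measured by RNA sequencing in 6 libraries from mouse liver, 3 from mice labelled HKO (Sox9HKO in the series title) and 3 from mice labelled WT (Sox9f/f, which carry the floxed Sox9 allele). All animals were 12-week-old C57BL/6 mice, sampled 48 h after partial hepatectomy (PHx), in which surgery takes out a share of the liver and the rest grows back. The labels name the tissue as liver and the cells as hepatocytes, and the sources used here do not give the promoter that drives the recombinase. They also do not say if libraries of 1 group came from separate mice, so p-values cover the spread between libraries, which may be technical.

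E2F proteins are transcription factors that switch genes of DNA synthesis on as a cell leaves G1. The pocket proteins encoded by Rb1, Rbl1 and Rbl2 bind E2F proteins and hold these genes down until cyclin-dependent kinases phosphorylate them. Later in the cycle B-MYB (encoded by Mybl2) and FOXM1 act with the MuvB complex on genes of mitosis, while E2F7 and E2F8 turn G1/S genes down again. In rodent liver most hepatocytes are quiescent, and they enter the cycle in near synchrony after PHx, with E2F7 and E2F8 also known there for their part in polyploid hepatocytes.

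Promoter windows are shown for E2f2, the only regulator called different, and for E2f3 and Rbl1, an activator that did not pass the test and a pocket protein gene whose groups did not overlap. The pair E2f3 and Rbl1 was chosen after its values were seen. Each window holds 250 bases before and 50 bases after a transcript start, 5′ to 3′ on the gene's strand, from RefSeq on GRCm38.p6. The capitals mark an E2F-type word (TTNNCGN, in which every N is C or G) or a CHR word (TTTGAA or TTCGAA), a type of element known at mitotic genes, on either strand. The windows lie at chr4:136172024-136172323 (plus strand, E2f2), chr13:29986014-29986313 (minus strand, E2f3) and chr2:157204485-157204784 (minus strand, Rbl1).
E2f2: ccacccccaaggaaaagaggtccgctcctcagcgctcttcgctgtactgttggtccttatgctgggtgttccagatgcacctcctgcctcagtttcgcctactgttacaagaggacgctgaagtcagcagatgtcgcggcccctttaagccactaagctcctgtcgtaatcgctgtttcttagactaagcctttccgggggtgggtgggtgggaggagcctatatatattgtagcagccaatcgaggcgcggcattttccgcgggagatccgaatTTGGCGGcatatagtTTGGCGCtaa
E2f3: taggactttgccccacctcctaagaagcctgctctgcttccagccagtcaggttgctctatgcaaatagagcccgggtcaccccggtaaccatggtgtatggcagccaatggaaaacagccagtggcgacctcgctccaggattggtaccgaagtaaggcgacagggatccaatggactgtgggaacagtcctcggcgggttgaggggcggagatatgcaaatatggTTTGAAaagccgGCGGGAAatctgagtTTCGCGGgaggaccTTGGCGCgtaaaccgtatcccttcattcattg
Rbl1: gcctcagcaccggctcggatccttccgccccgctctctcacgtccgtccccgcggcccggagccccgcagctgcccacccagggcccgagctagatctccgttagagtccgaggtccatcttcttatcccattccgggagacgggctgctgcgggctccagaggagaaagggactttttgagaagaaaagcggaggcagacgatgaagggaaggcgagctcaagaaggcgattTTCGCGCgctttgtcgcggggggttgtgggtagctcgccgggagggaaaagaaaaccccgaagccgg
The E2f2 window shown held 2 E2F-type words, both after the RefSeq start, and no CHR word. The starts of the E2f2 and E2f3 windows shown lie at -120 and -395 relative to the 5′ ends of the deposited genes. Both E2F-type words of E2f2 thus lie before that end. The E2f3 window shown held 3 E2F-type words and 1 CHR word, and the Rbl1 window held 1 E2F-type word, at position -17 relative to the start. Of 32851 windows of this length in the RefSeq table, 17.8% held an E2F-type word and 19.2% a CHR word. The table held 8 of the 10 regulators in 10 windows, and Foxm1 and Rb1 had none. The second window of E2f2, whose start lies 8388 bases inside the gene, held no E2F-type word and 1 CHR word, and that of E2f3, with its start 1277 bases inside, held neither. The E2f7 window held 3 E2F-type words, and those of E2f8 and Mybl2 held 1 each, which in E2f8 overlaps a CCAAT word. The E2f8 window also held 1 CHR word, at position -20. The Rbl2 window held no E2F-type word and 1 CHR word. The transcript start behind the E2f1 window lies 466 bases inside the gene as the deposited table draws it, and the window held neither kind of word. A match describes letters in these windows and does not show that a factor binds there.

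The libraries held 16659778 to 21168233 counts, of which the 10 regulators took 1203 to 1985. Sox9, the targeted gene, stood at 5.14 ± 1.06 (HKO) and 10.6 ± 3.41 CPM (WT; SD, n = 3; CPM are counts scaled by TMM to a common library total) and was called lower (log2 fold change -1.05, edgeR adjusted p = 0.0284). HKO 2 stood apart on the second principal component, which carried 18.8% of the variance, and 25.9% of its counts were mitochondrial, against 12.1% to 16.3% in the other libraries. Of 12 hepatocyte marker genes 11 were found, and their summed level was 78015 to 82604 CPM in HKO and 81363 to 102855 CPM in WT. Alb made up most of these sums, at 49761 to 53180 CPM in HKO and 61219 to 77671 CPM in WT. All HKO values lay above all WT values in 7 of the 11 and below them in 1, Alb. Over all genes tested these shares were 22.6% and 21.6%. The summed level of 11 endothelial markers was 590 CPM in HKO 2, 197 and 232 CPM in HKO 1 and HKO 3, and 129 to 188 CPM in WT, and that of 11 stellate cell markers was 597, 153, 171 and 101 to 145 CPM in the same order. The part of these cells in the values of HKO 2 below was not tested, and values without HKO 2 are given beside the results it moves most. In such bulk samples fewer dividing cells and less RNA of a gene per cell cannot be told apart.

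Of the 10 regulators 9 passed the filter on low counts and were tested, and 1 of them, E2f2, was called lower in HKO (11.1% of those tested, at an adjusted p below 0.05). Over all genes tested 11.2% were called lower and 12.1% higher, 23.2% in all, so the share among the regulators was close to that of the genes at large. No regulator was called higher by edgeR, DESeq2 or limma-voom, and none had a higher level at an unadjusted p below 0.05 (0 of 9 by edgeR). The regulators differed widely among themselves, with log2 fold changes (HKO minus WT) from -2.19 for Foxm1 to 0.23 for Rbl2 and a median of -0.26, against a median of 0.02 over all genes tested. In Foxm1, E2f2 and Rbl1 all HKO values lay below all WT values, which held for 21.6% of all genes tested.

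**Figure D1:**
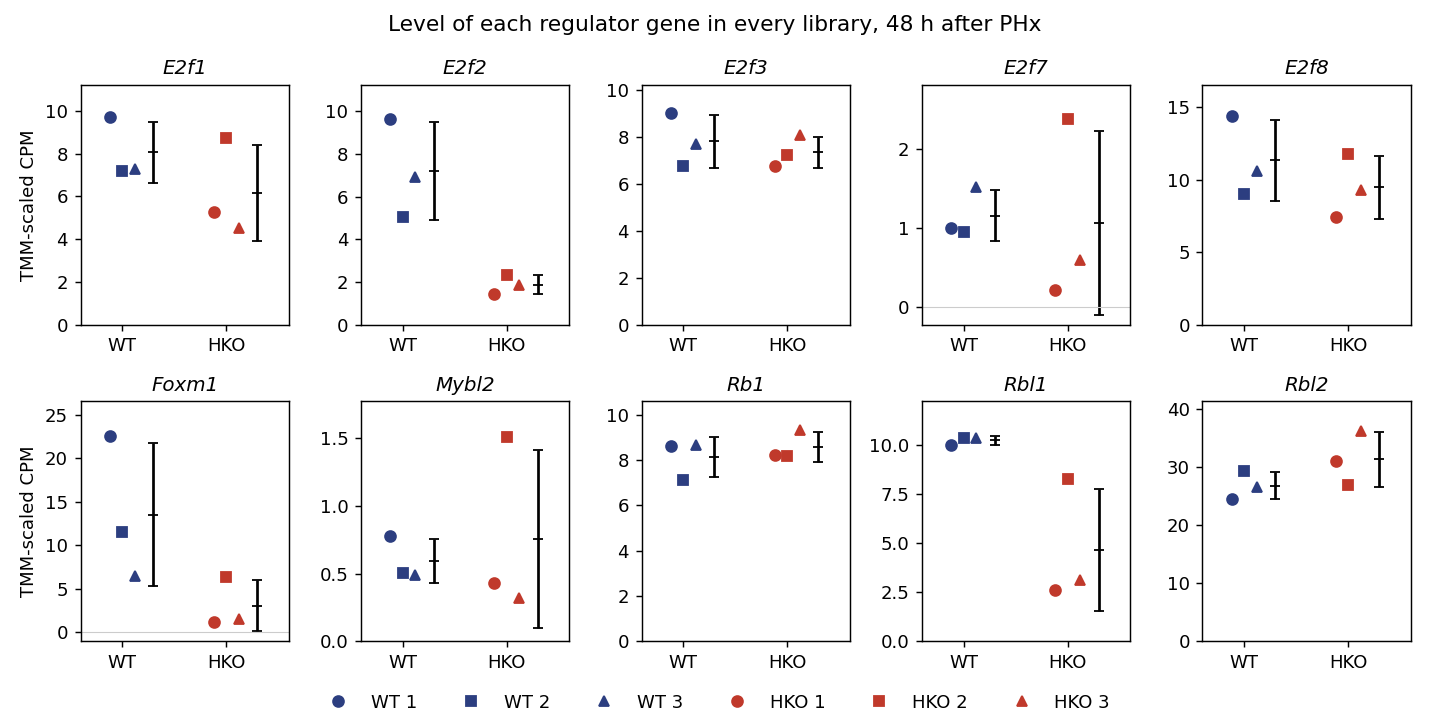
TMM-scaled CPM (vertical axis, linear) of each regulator in the 3 WT and 3 HKO libraries, with the mean and SD beside the points. The HKO points of E2f2, Foxm1 and Rbl1 lie below all WT points, and HKO 2 (square) is the highest HKO point in 7 of the 10 genes.

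Of the activator E2F genes, E2f2 alone passed the test. E2f1 (ENSMUSG00000027490, chromosome 2, 154559407 to 154569892, minus strand), an activator that RB restrains, was at 5.26 CPM in HKO 1, 8.72 CPM in HKO 2 and 4.51 CPM in HKO 3, and at 9.72, 7.19 and 7.26 CPM in WT 1, 2 and 3. Values of the other genes follow in the same order of libraries. The groups overlapped through HKO 2, which lay above WT 2 and WT 3. E2f1 was not called (log2 fold change -0.39, 95% interval -1.01 to 0.23, edgeR adjusted p = 0.320), but without HKO 2 it was (-0.72, edgeR adjusted p = 0.0378). With any other library left out E2f1 was not called (edgeR adjusted p from 0.340 to 0.613).

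E2f2 (ENSMUSG00000018983, chromosome 4, 136172394 to 136196057, plus strand), which encodes another activator, stood at 1.45, 2.33 and 1.87 CPM in HKO and at 9.61, 5.06 and 6.90 CPM in WT. Every HKO library was below every WT library, HKO 2 included. E2f2 fell to 26.2% of its mean level in WT (log2 fold change -1.93, SE 0.30, edgeR adjusted p = 0.00415), and ranked 172 of 12556 from the most negative fold change. It was called under all 12 alternatives in scaling, filter, test, block and libraries left out, with log2 fold changes from -2.13 to -1.68.

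E2f3 (ENSMUSG00000016477, chromosome 13, 29906575 to 29985668, minus strand), the remaining activator, stood at 6.77, 7.21 and 8.07 CPM in HKO and at 9.0, 6.74 and 7.69 CPM in WT. The groups overlapped throughout, and the log2 fold change was -0.09 (95% interval -0.47 to 0.29, edgeR adjusted p = 0.737). This interval lies wholly above that of E2f2 (-2.62 to -1.24), and the difference between both genes was not tested.

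The atypical repressors did not pass the test. E2f8 (ENSMUSG00000046179, chromosome 7, 48866429 to 48881596, minus strand) stood at 7.41, 11.7 and 9.25 CPM in HKO and at 14.4, 8.99 and 10.6 CPM in WT (log2 fold change -0.26, 95% interval -0.79 to 0.27, edgeR adjusted p = 0.443). The highest value was in WT 1 and the lowest in HKO 1, and the other libraries were mixed. Exons of Gm2788 on the opposite strand cover 11.2% of its exon bases in GENCODE M21, and no strand-marking step is described, so such reads cannot be told apart.

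E2f7 (ENSMUSG00000020185, chromosome 10, 110745439 to 110787384, plus strand) was read at 4, 41 and 13 counts in HKO and 18, 17 and 25 counts in WT. HKO 2 held the most and HKO 1 the fewest of the 6 libraries. The exact 95% Poisson interval is 29.4 to 55.6 for the 41 counts and 1.09 to 10.2 for the 4 counts, so the HKO libraries differed beyond counting error, which is the only error these intervals cover. With that spread the log2 fold change was -0.14 with a 95% interval of -1.85 to 1.56, too wide to set a direction (edgeR adjusted p = 0.905), and it was -1.47 without HKO 2 (edgeR adjusted p = 0.0736).

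The regulators of mitotic genes were read at very different depths. Foxm1 (ENSMUSG00000001517, chromosome 6, 128362967 to 128376146, plus strand) stood at 1.18, 6.4 and 1.46 CPM in HKO and at 22.6, 11.5 and 6.47 CPM in WT. The groups did not overlap, but HKO 2 and WT 3 nearly met. Values spanned 3.49-fold within WT and 5.41-fold within HKO, against 1.90-fold and 1.6-fold for E2f2. The log2 fold change of -2.19 (SE 0.68) was the most negative among the regulators and ranked 116 of 12556, yet it missed the threshold (edgeR adjusted p = 0.0531). Without HKO 2 it was -3.34 (edgeR adjusted p = 0.00391), and without WT 1 it was -1.61 (edgeR adjusted p = 0.149). Exons of the genes Tex52 and Gm44596 on the same strand overlap 2.5% and 1.69% of its exon bases.

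Mybl2 (ENSMUSG00000017861, chromosome 2, 163054687 to 163084688, plus strand) was read at 8, 26 and 7 counts in HKO and at 14, 9 and 8 counts in WT and did not pass the filter. HKO 2 again held the most counts, with an exact 95% Poisson interval of 17 to 38.1, and the other 5 libraries lay at 7 to 14 counts. Without the filter the log2 fold change was 0.32 (edgeR adjusted p = 0.770), and without both the filter and HKO 2, a setting chosen after seeing the data, it was -0.65 (edgeR adjusted p = 0.564), so no difference was detectable at this depth.

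Among the pocket protein genes the groups separated for Rbl1 alone. Rbl1 (ENSMUSG00000027641, chromosome 2, 157145893 to 157204534, minus strand), which encodes p107, stood at 2.63, 8.26 and 3.14 CPM in HKO and at 10, 10.4 and 10.4 CPM in WT. The WT libraries lay within 1.04-fold of each other, HKO 2 came close below them, and HKO 1 and HKO 3 were far lower. The log2 fold change was -1.14 (SE 0.39, edgeR adjusted p = 0.0711), and without HKO 2 it was -1.82 (edgeR adjusted p = 0.000376). With any other library left out Rbl1 was not called (edgeR adjusted p from 0.122 to 0.172).

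Rb1 (ENSMUSG00000022105, chromosome 14, 73183673 to 73325822, minus strand), which encodes RB itself, stood at 8.22, 8.20 and 9.34 CPM in HKO and at 8.61, 7.13 and 8.67 CPM in WT. The groups overlapped, with a log2 fold change of 0.08 (95% interval -0.26 to 0.42, or 0.834 to 1.34 times the WT level, edgeR adjusted p = 0.731). Rbl2 (ENSMUSG00000031666, chromosome 8, 91070057 to 91123844, plus strand), which encodes p130, the pocket protein prominent in quiescent cells, stood at 31.1, 26.9 and 36.3 CPM in HKO and at 24.6, 29.4 and 26.5 CPM in WT. HKO 1 and HKO 3 lay above all WT libraries and HKO 2 among them, and the log2 fold change was 0.23 (95% interval -0.09 to 0.54, edgeR adjusted p = 0.258). Exons of opposite-strand genes overlap both. Rcbtb2 and Lpar6 cover 8.11% and 6.78% of the exon bases of Rb1, and Aktip and Gm45464 cover 9.17% and 11.8% of those of Rbl2. Reads from these genes cannot be told apart there, and their share of the counts is not known.

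**Figure D2:**
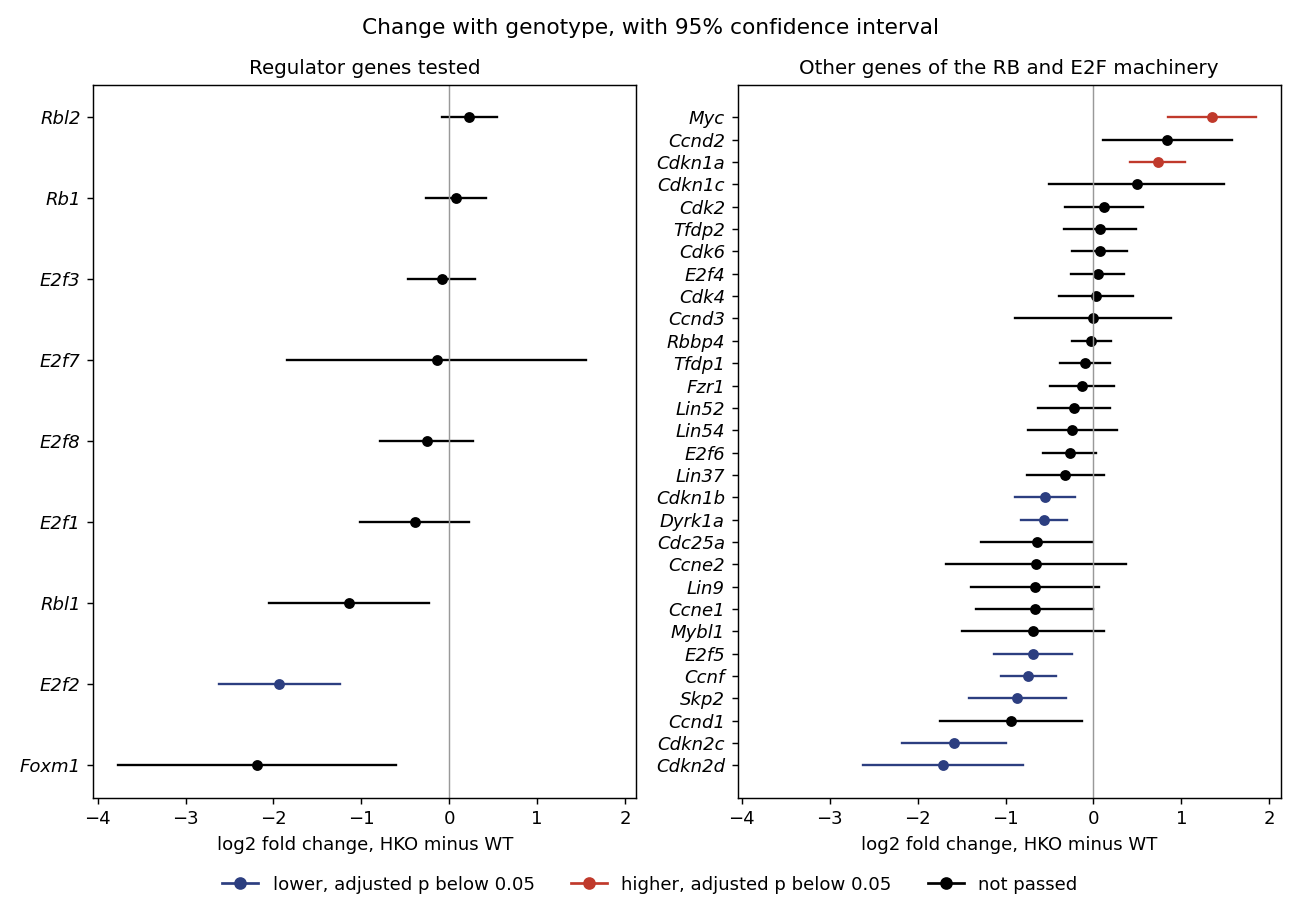
Log2 fold change (HKO minus WT, horizontal axis) with its unadjusted 95% confidence interval for the 9 regulators tested and for 30 tested partner genes. E2f2 was the only regulator called (-1.93), while the intervals of Foxm1 and Rbl1 exclude 0 although their adjusted p-values missed 0.05.

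Between genes, levels were compared per length, as deposited FPKM (fragment counts divided by a gene length and by the library total). In WT, Rbl2 was highest at 3.13 ± 0.148 FPKM, and E2f7 and Mybl2 were lowest at 0.0902 ± 0.0237 and 0.107 ± 0.0351 FPKM (SD, n = 3). The other 7 regulators had WT means from 1.20 to 1.82 FPKM, with SDs up to 0.992 FPKM in Foxm1, so their order among neighbours lies within the spread. In HKO, Rbl2 was at 3.69 ± 0.733 FPKM, E2f2 at 0.382 ± 0.0713 FPKM and Foxm1 at 0.318 ± 0.293 FPKM. The gene lengths implied by the deposited FPKM were 0.885 to 1.58 times the merged exon length in GENCODE M21, and with that length Foxm1 ranked 3 in WT in place of 5.

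HKO 2 held the highest HKO value in 7 of the 10 regulators, and in the other 3 (E2f3, Rb1 and Rbl2) HKO 3 did. HKO 2 was the highest HKO library in 33.6% of all genes tested. Within WT, WT 1 was highest in 6 of the 10 regulators, against 38.6% of all genes tested. On the scale of log2(CPM + 0.1) relative to the WT mean, Foxm1 was at -3.23, -0.89 and -2.95 in HKO 1, 2 and 3, and Rbl1 at -1.92, -0.31 and -1.67. E2f2 varied less, at -2.18, -1.54 and -1.84. Without HKO 2, the 4 genes E2f1, E2f2, Foxm1 and Rbl1 were called lower among 9 tested, beside 12.2% of all genes tested. HKO 2 was the highest HKO library in each of these 4 genes. With any other library left out, E2f2 was the only regulator called.

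**Figure D3:**
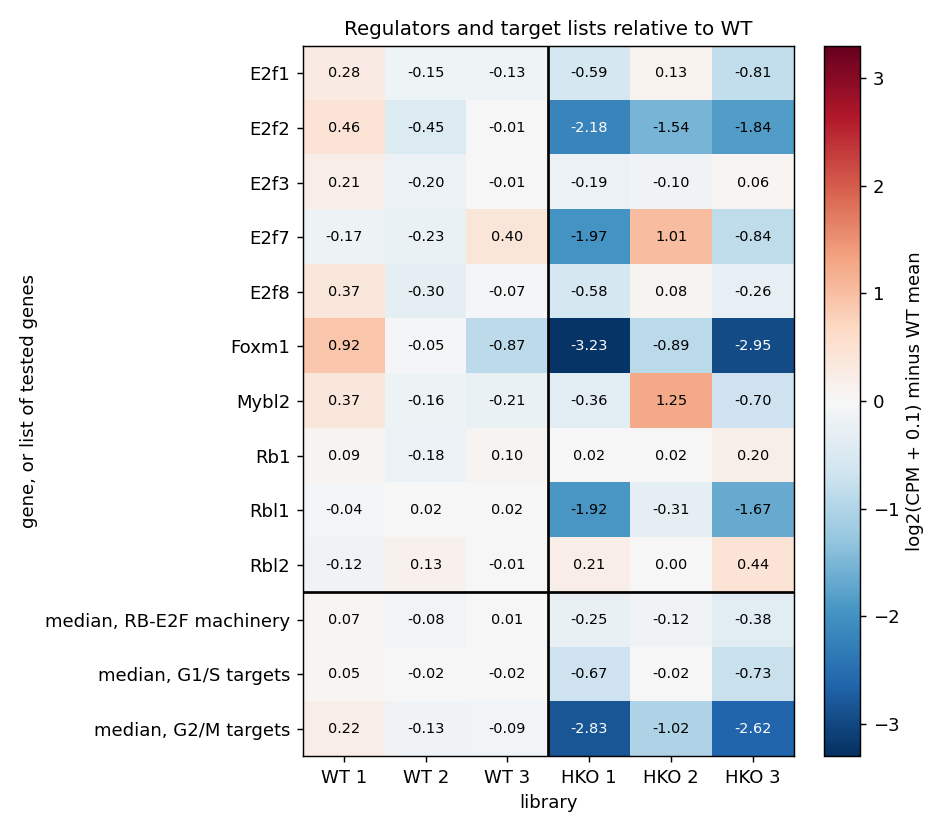
Log2(CPM + 0.1) minus the WT mean in each library (columns, colour and printed value), for the 10 regulators and for the medians of 3 gene lists. HKO 1 and HKO 3 show low Foxm1, Rbl1 and G2/M targets, while in HKO 2 the G1/S median is -0.02 and the G2/M median -1.02.

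Ratios of counts within a library do not depend on scaling to library size, and 3 were compared. The Foxm1 to E2f1 ratio was 0.228, 0.734 and 0.327 in HKO 1, 2 and 3 and 2.32, 1.6 and 0.891 in WT 1, 2 and 3. All HKO ratios lay below all WT ratios, with a log2 difference of -1.97. The Rbl1 to Rbl2 ratio was 0.0856, 0.308 and 0.0871 in HKO and 0.407, 0.354 and 0.392 in WT. Again the groups did not overlap, with a log2 difference of -1.54 and HKO 2 just under WT. The ratio of E2f7 plus E2f8 to E2f1 plus E2f2 plus E2f3 was 0.567, 0.774 and 0.682 in HKO and 0.544, 0.524 and 0.554 in WT. It was higher in each HKO library, with HKO 1 just above WT 3 and a log2 difference of 0.31. Its denominator holds E2f2, the regulator called lower, at 27, 40 and 41 counts in HKO and 173, 90 and 113 in WT. The ratio without E2f2 was not tested, so a shift of the repressors against the other activators is not shown. Each comparison gave a two-sided exact permutation p of 0.1, the smallest that 3 libraries against 3 allow, and 0.1 when adjusted over the 3 ratios.

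**Figure D4:**
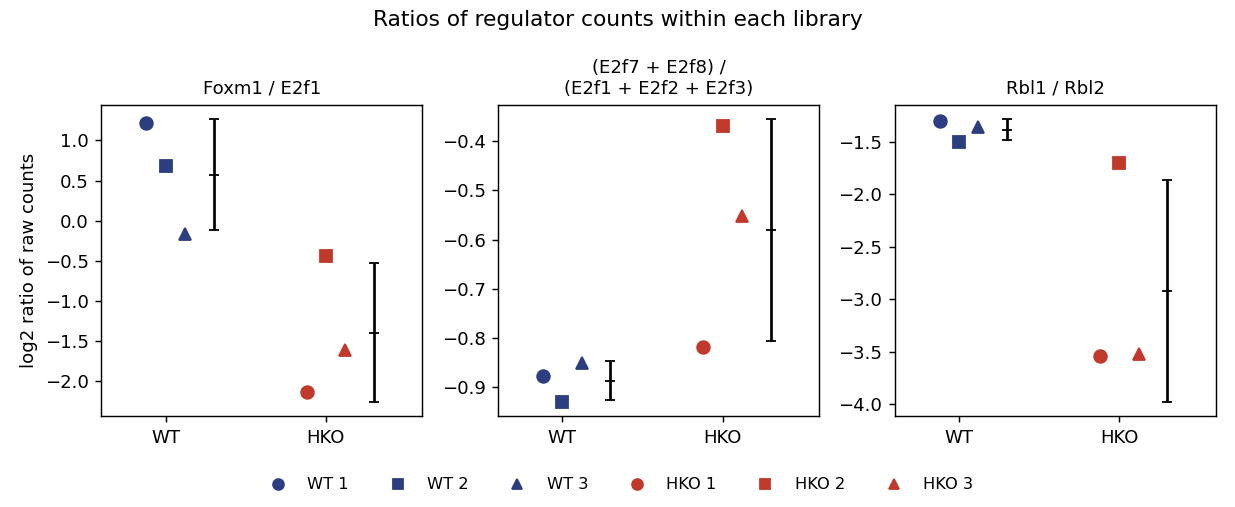
Log2 ratios of raw counts (vertical axes, each with its own range) in the 3 WT and 3 HKO libraries, with mean and SD. WT and HKO do not overlap in any of the 3 ratios. The distance between HKO 2 and WT is small for Rbl1 to Rbl2. For E2f7 plus E2f8 to the activators HKO 1 (-0.82) nearly meets WT 3 (-0.85).

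The partners of the regulators differed in both directions. Of 32 listed genes of the RB and E2F machinery 30 were tested, of which 7 were called lower, 2 higher and 21 neither. Their median log2 fold change was -0.26. Of these, 23.3% were lower and 6.67% higher, against the 11.2% and 12.1% of all genes given above. Cdkn2d (p19) and Cdkn2c (p18), inhibitors of cyclin D-dependent kinases, fell by 1.71 and 1.59 on the log2 scale, and the inhibitor Cdkn1b (p27) by 0.55. The ubiquitin ligase subunits Skp2, which targets p27, and Ccnf had log2 fold changes of -0.87 and -0.74, both called. E2f5, a repressor E2F that works with p130, fell by 0.69 on that scale, and Dyrk1a, a kinase that promotes assembly of the DREAM complex, had -0.56, also called. Cdkn1a (p21), an inhibitor of cyclin-dependent kinases and p53 target, rose by 0.73 and Myc, a growth-promoting transcription factor, by 1.35 on the log2 scale. The edgeR adjusted p of these 9 genes ranged from 0.00464 to 0.0365, and 5 genes of the list were called without WT 1 or without WT 3.

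Other core partners did not pass the test. The repressor E2f4 had a log2 fold change of 0.05, the E2F dimerisation partners Tfdp1 and Tfdp2 had -0.09 and 0.08, and the MuvB subunits Lin9, Lin37, Lin52 and Lin54 had -0.66, -0.32, -0.22 and -0.24. Cyclin D1 (Ccnd1), which starts phosphorylation of RB, was read at 35.3, 91.7 and 35.9 CPM in HKO, below the 113, 101 and 97.8 CPM of WT (log2 fold change -0.94, edgeR adjusted p = 0.0896). Here too HKO 2 came close to WT while HKO 1 and HKO 3 lay well below, and without HKO 2 Ccnd1 was called lower (-1.54, edgeR adjusted p = 0.000119). The other D-type cyclin genes did not follow Ccnd1. Ccnd2 was at 3.28, 7.85 and 5.01 CPM in HKO, above the 2.94, 2.86 and 3.17 CPM of WT (log2 fold change 0.84, edgeR adjusted p = 0.0915). Ccnd3 had a log2 fold change of -0.008 (edgeR adjusted p = 0.990). The genes of this paragraph were named after their values were seen.

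Targets of the network were counted by the phase of the cycle they serve, and the difference between the lists was not tested. The lists were chosen with earlier results of these data known, so their counts describe the listed genes only. Of 48 listed G2/M targets of FOXM1 and B-MYB, all tested, 44 were called lower (91.7%, beside the 11.2% of all genes tested), 4 did not pass and none was called higher by edgeR, DESeq2 or limma-voom (0 at an unadjusted p below 0.05 by each). Their median log2 fold change was -1.96. The largest falls were in Cenpf and Cenpe, kinetochore proteins, Hmmr, a spindle protein, and Ckap2l, a mitotic spindle protein, with log2 fold changes of -2.69, -2.61, -2.63 and -2.60. In 47 of the 48 genes all HKO values lay below all WT values, beside 21.6% of all genes tested. The exception was Pttg1 (securin, log2 fold change 0.13), named after its value was seen. HKO 2 was the highest HKO library in 47 of the 48 genes, beside 33.6% of all genes tested. Its median relative to WT was -1.02, against -2.83 in HKO 1 and -2.62 in HKO 3. The count of lower genes was 47 without HKO 2, 25 without HKO 1, 24 without HKO 3, 28 without WT 1 or WT 2 and 18 without WT 3.

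Of 43 listed G1/S targets of E2F 42 were tested, and 4 were called lower (9.52%, close to the 11.2% of all genes tested), 38 did not pass and none was called higher, again with 0 at an unadjusted p below 0.05 by each of these tools. Their median log2 fold change was -0.42. Among them were Dbf4, the activating subunit of the origin-firing kinase CDC7, Gins3, a subunit of the replicative helicase, and Clspn, a checkpoint adaptor, with log2 fold changes of -1.53, -1.24 and -1.19. As among the G2/M targets, HKO 2 was mostly the highest HKO library, in 40 of the 42 genes (beside 33.6% of all genes tested). Its median relative to WT was -0.02, against -0.67 in HKO 1 and -0.73 in HKO 3. Without HKO 2 the count of lower genes was 22 of 42 (beside 12.2% of all genes tested) and the median -0.62, and the count was 1 or 2 when any other library was left out. In E2f1 too HKO 2 lay among the WT values, whereas E2f2 was below all of them in HKO 2.

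**Figure D5:**
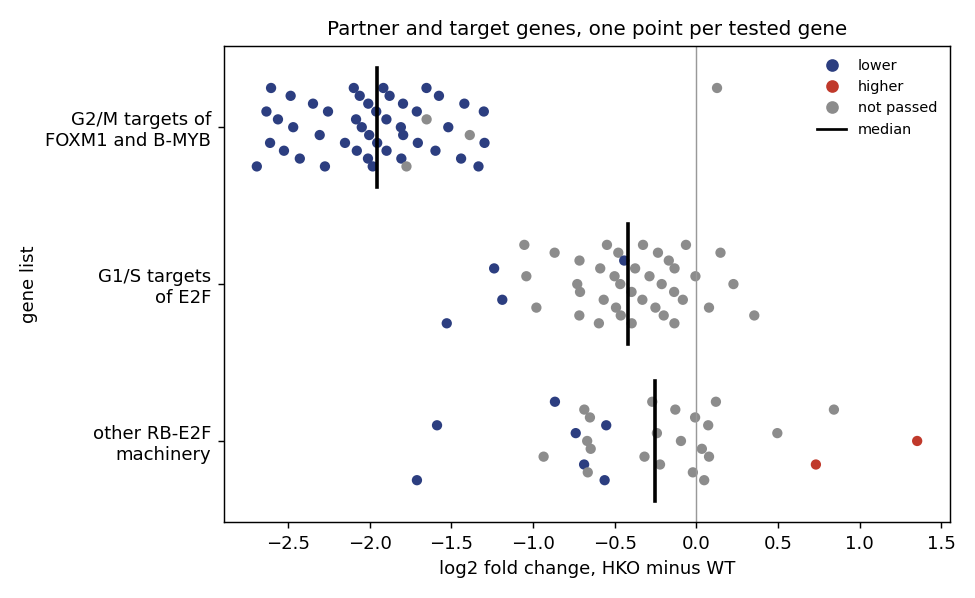
Log2 fold change (HKO minus WT) of each tested gene of 3 lists, with the list median as a black bar and vertical offsets for legibility only. Medians were -1.96 for G2/M targets, -0.42 for G1/S targets and -0.26 for the other machinery genes.

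The genes whose log2 CPM over the 6 libraries was most like that of a regulator were taken from 11757 tested genes with a mean of at least 1 CPM, as a description in which the group difference and library makeup are shared. For Foxm1 they were Pkmyt1, which encodes a kinase that holds CDK1 inactive, Lipo1, Ybx1-ps2 and 1810030O07Rik, with Pearson r from 0.989 to 0.992. For E2f1 they included Sept9 (named in GENCODE M21 by its gene ID, ENSMUSG00000059248, since the deposited name had been turned into a date), Anxa2 and Hs3st6, with r from 0.988 to 0.990. For Rb1 the closest included Gatad2b, AA474331 and Mitf, with r from 0.950 to 0.967. The rank correlation (Spearman) of these with Rb1 was 0.886, 0.6 and 0.771. Each r was picked as among the highest of 11757 over 6 libraries, and how high r runs by chance was not tested. None of the similar genes named here was called between the groups.

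Markers of other cell types moved with genotype as well, and their part in the regulators' values was not tested. Of 14 Kupffer cell and macrophage markers 13 were higher and 1 (Mpeg1) lower, with summed levels of 365 to 546 CPM in HKO and 402 to 427 CPM in WT. Mpeg1 is a large part of these sums, at 59.9 to 89.4 CPM in HKO and 191 to 209 CPM in WT, so they mask the rise of the other 13. Mpeg1 and Cd163 had the largest changes, with log2 fold changes of -1.43 and 1.29. Among 11 endothelial and 10 stellate markers tested, 1 and 3 were higher, with the largest values in Lyve1 (1.82) and Stab1 (1.36, not passed) and in Col1a1 and Col1a2 (2.56 and 2.10, not passed). Of 13 T, B and NK cell markers 4 were tested and 3 were higher, led by Ighm and Igkc (4.38 and 3.59), with sums of 20.9 to 28.5 CPM in HKO and 1.28 to 3.78 CPM in WT, while Cd8a was at 0 in every library. Of 9 bile duct markers 3 were tested, and Spp1 and Pkhd1 were lower (-2.03 and -1.03), with sums of 35.8 to 59.3 CPM in HKO and 66.7 to 170 CPM in WT and with Sctr at 0. Neutrophil markers summed to at most 5.12 CPM, with Ly6g and Camp at 0 and Csf3r, the only one tested, higher (1.78). Of 8 erythroid markers 5 were tested and 3 were higher, led by Hbb-bt and Hba-a1 (5.30 and 3.80), with sums of 70.9 to 76.3 CPM in HKO and 53.9 to 61.8 CPM in WT. Among hepatocyte markers 5 of 11 were higher, led by Ass1 and Cyp2e1 (1.36 and 1.07).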

How the data were processed

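RNA of 6 libraries was sequenced. HISAT2 2.0.4, StringTie 1.3.0, mm10 and GRCm38.p4 are named in the submitters' processing notes, and their roles and settings are not given in the sources used here. Per the file headers, the authors deposited a raw count (whole numbers) and an FPKM value for each gene and library. The treatment of reads that match several genes is not stated. Coordinates are the deposited table's, on GRCm38.

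The counts were tested with edgeR 4.0.16 in R 4.3.3: filterByExpr by group (12556 of 34745 genes kept), TMM scaling and the quasi-likelihood F-test with no block term, with Benjamini-Hochberg adjustment over all genes tested. The code was tested on simulated data. SE is the absolute log2 fold change over the square root of F, and intervals are not adjusted. Ratios used raw counts plus 0.5. Alternatives were RLE and upper-quartile scaling, no filter, DESeq2 1.42.0, limma-voom (limma 3.58.1), a block on replicate number, each library left out and, for ratios, a pseudocount of 1. The labels do not say that equal numbers pair libraries, so numbers were not taken as pairs. Deviations from the group mean correlated at r from -0.00 to 0.07 over genes between same-numbered libraries. Between the others r was -0.08 to 0.06. With 3 libraries per group this cannot exclude pairing.

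Named genes were the regulators, Sox9, every called machinery gene, the 4 called genes with the largest absolute fold change in each target list, the 2 tested genes with the largest in each marker list, and the 4 genes most like Foxm1, E2f1 and Rb1. Of the promoter windows that rule names, that of Rb1 is not in the table and that of E2f1 lies inside the gene. Regulators and lists were chosen with earlier results of these data known. The hepatocyte marker Tf was not analysed here, and some genes that the rule names are not reported here.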

Additional observations from a re-analysis of the deposited data

How the results depend on the processing

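E2f2 kept its call under all 12 alternatives, with adjusted p up to 0.0227, while the call of Foxm1 depended on the setting (called in 5 of 12, adjusted p from 0.00391 to 0.149), as did that of Rbl1 (4 of 12, from 0.000376 to 0.172) and E2f1 (1 of 12, from 0.0378 to 0.613). The cause was not tested. The number of regulators called was 1 in the main analysis and 2 with upper-quartile scaling, with no filter and with DESeq2, and 3 with limma-voom. The G1/S targets called numbered 4, and 7 with upper-quartile scaling, 8 with DESeq2 and 9 with limma-voom.

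With a block on the replicate number, 3 regulators (E2f2, Foxm1 and Rbl1), 2 G1/S targets and 2360 genes in all were called, against 2917 without the block. The labels do not say if equal numbers pair the libraries. For each ratio the exact p over sign changes of the paired differences was 0.25, the smallest that 3 pairs allow, and the differences are the same by construction (-1.97, 0.31 and -1.54).

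With each library left out, the calls ranged from 1404 to 3135 over all genes, 1 to 4 among the regulators, 5 to 13 in the machinery list, 1 to 22 among G1/S targets and 18 to 47 among G2/M targets. Over all genes the count was lowest without WT 3, was 1876 without HKO 3 and 1846 without WT 2, and was highest without HKO 2. The ratio differences ranged from -2.45 to -1.60 (Foxm1 to E2f1), 0.20 to 0.43 (atypical to activator) and -2.15 to -1.23 (Rbl1 to Rbl2). The sign changed in 3 regulators that were never called. The log2 fold change of E2f7 ranged from -1.47 (without HKO 2) to 0.32 (without HKO 1), that of E2f3 from -0.19 (without WT 2) to 0.015 (without WT 1) and that of Rb1 from -0.010 (without WT 2) to 0.12 (without WT 3). Mybl2 changed sign when HKO 2 was left out without the filter, a setting chosen after seeing the data (-0.65 against 0.32). Mybl2 and E2f7 were read at 4 to 41 counts in a library, and the part of this depth in their sign changes was not tested.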
